A study of Mus musculus with 9 samples.

Results

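The DNA replication and E2F genes are 41 genes for the helicase, clamp, polymerases, nucleotide supply and chromatin assembly of S phase, with the transcription factors E2f1, E2f7 and E2f8. They were chosen by symbol from the 41128 genes counted in mouse lymphomas, and all 41 were among the 14057 genes that passed the filter on low counts. RNA was sequenced from 3 Bcl6 tumors (Smc3 wt/wt, Cγ1 wt/cre, IµBcl6) and 6 Smc3/Bcl6 tumors (Smc3 wt/-, Cγ1 wt/cre, IµBcl6). Both genotypes thus carried IµBcl6, a transgene that keeps Bcl6 on in B cells, and the Cγ1-Cre allele, which recombines once B cells enter the germinal center reaction. Only the Smc3 allele differed, and Smc3 encodes an ATPase subunit of the cohesin ring. The labels number the tumors without naming the animals or giving their ages, so the p-values measure the spread between these samples. Tumor 1 of either genotype is labelled mesenteric lymph node, and the other 7 are labelled lymph node, while the study's text describes every tumor as mesenteric, so values split or adjusted by this label rest on the label alone. The question was whether tumors with 1 deleted Smc3 allele differed from Bcl6 tumors in the RNA of the replication machinery and of its E2F regulators.

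DNA replication starts when the origin recognition complex, CDC6 and CDT1 load the MCM2-7 helicase onto DNA. CDC45 and the GINS complex then turn that ring into an active helicase, primase and polymerases copy the strands, and the clamp PCNA, loaded by the RFC complex, holds the polymerases on DNA. E2F1 activates transcription of most of these genes at the entry into S phase. E2F7 and E2F8 are atypical E2F factors that repress the same targets later in S phase, and their own genes are E2F targets. Germinal center B cells and the lymphomas that arise from them divide fast, and such genes are abundant in them.

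E2F sites lie close to the start of many replication genes, and the sequence before the start of E2f7, E2f8 and Pola1 is shown because these 3 genes were lower in Smc3/Bcl6 tumors by the thresholds used here and held a match. Lig1, the other gene lower over 9 tumors, held none in its 3 windows and is not shown. Each line gives 250 bases before the RefSeq start on GRCm38.p6, 5′ to 3′ on the strand of the gene, with matches on either strand in capitals. The letters searched were TTCCCGC, then TTGGCGC, then TTCGCGC and then TTGCCGC. These are the 4 spellings of the common E2F site, picked with results of these data known. The E2f7 window is chr10:110745189-110745438 (plus strand), the E2f8 window is chr7:48881597-48881846 (minus strand) and the Pola1 window is chrX:93632156-93632405 (minus strand).
E2f7: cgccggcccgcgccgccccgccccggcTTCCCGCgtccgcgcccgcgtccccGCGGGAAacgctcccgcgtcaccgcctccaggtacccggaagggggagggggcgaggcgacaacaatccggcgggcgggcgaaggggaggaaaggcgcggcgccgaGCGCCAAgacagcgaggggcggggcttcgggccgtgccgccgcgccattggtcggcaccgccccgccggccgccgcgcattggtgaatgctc
E2f8: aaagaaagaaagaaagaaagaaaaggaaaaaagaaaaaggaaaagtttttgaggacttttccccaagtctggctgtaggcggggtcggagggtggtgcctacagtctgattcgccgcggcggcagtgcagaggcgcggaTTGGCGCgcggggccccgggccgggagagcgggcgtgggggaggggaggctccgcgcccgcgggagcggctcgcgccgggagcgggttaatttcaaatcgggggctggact
Pola1: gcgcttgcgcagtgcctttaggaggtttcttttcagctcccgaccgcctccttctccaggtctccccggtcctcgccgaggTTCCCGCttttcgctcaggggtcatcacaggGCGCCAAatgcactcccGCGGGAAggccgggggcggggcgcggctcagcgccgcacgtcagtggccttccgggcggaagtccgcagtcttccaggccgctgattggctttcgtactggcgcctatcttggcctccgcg
E2f7 and Pola1 each held 3 matches and E2f8 held 1. RefSeq windows were found for 34 of the 41 genes, 38 windows in all, and 19 of the 38 (50%) held a match, against 2591 of 32851 windows of all genes (7.89%). At least 2 matches were found in 13.2% of the members' windows and in 0.776% of all windows. The members' windows were also richer in G and C, with a median of 61.8% against 52.4%, and base composition was not matched in this comparison. CCAAT, searched on both strands, was in 63.2% of the members' windows and 33.8% of all windows, and it can share bases with the reverse of TTGGCGC. The RefSeq window of E2f1 starts inside the annotated gene and is not shown.

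Total counts ranged from 10156728 to 17774577 per tumor. The targeted gene Smc3 (ENSMUSG00000024974.10) had 126, 99.5 and 88.1 CPM (counts scaled per library, with TMM factors) in Bcl6 tumors 1 to 3. In the Smc3/Bcl6 tumors it ranged from 27.9 to 111 CPM with a median of 106. The genotypes overlapped, so the RNA level of Smc3 in these libraries did not check the labels. The study also measured Smc3 by RT-qPCR and reported that its expression was reduced in Smc3/Bcl6 tumors. That measurement was not used here. The log2 fold change of Smc3 in the counts, -0.19 (standard error 0.38), became 0.01 without Smc3/Bcl6 tumor 2. That tumor held the 27.9 CPM and stood apart in the whole table, with a quality weight of 0.125 from limma against 0.574 to 3.30 for the other 8 tumors. The comparisons of the 41 genes are therefore given with it and without it. The summed CPM of 8 B cell markers was 2770 to 8846 in Bcl6 tumors and 4763 to 10931 in Smc3/Bcl6 tumors, with none of the 8 at 0 in all tumors. In RNA of whole tumors, fewer cells of a type and less RNA per cell cannot be told apart.

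The mean log2 CPM of the 41 genes was 6.59, 5.91 and 5.84 in Bcl6 tumors 1 to 3, a mean of 6.11 ± 0.41 (SD, n = 3). In Smc3/Bcl6 tumors 1 to 6 it was 5.94, 6.48, 5.89, 5.19, 5.51 and 5.63, a mean of 5.77 ± 0.44 (SD, n = 6). The groups overlapped, and their difference of -0.34 was smaller than either SD. Each group had 1 tumor well above the rest, Bcl6 tumor 1 and Smc3/Bcl6 tumor 2, and Smc3/Bcl6 tumor 4 was the lowest of all. The TMM factor of Smc3/Bcl6 tumor 2 was 0.693, against 0.964 to 1.10 in the other tumors. A smaller factor raises the CPM of every gene in a tumor, so the high place of this tumor rests in part on the scaling. Scaled by library size alone, the difference between genotypes was -0.45. Without Smc3/Bcl6 tumor 2 the Smc3/Bcl6 mean was 5.63 ± 0.31 (SD, n = 5) and the difference -0.48. Without Bcl6 tumor 1, with all 6 Smc3/Bcl6 tumors, the difference was -0.10. Smc3/Bcl6 tumors 1 to 3 were above the lowest Bcl6 tumor, and tumors 4 to 6 were below all 3.

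**Figure D1:**
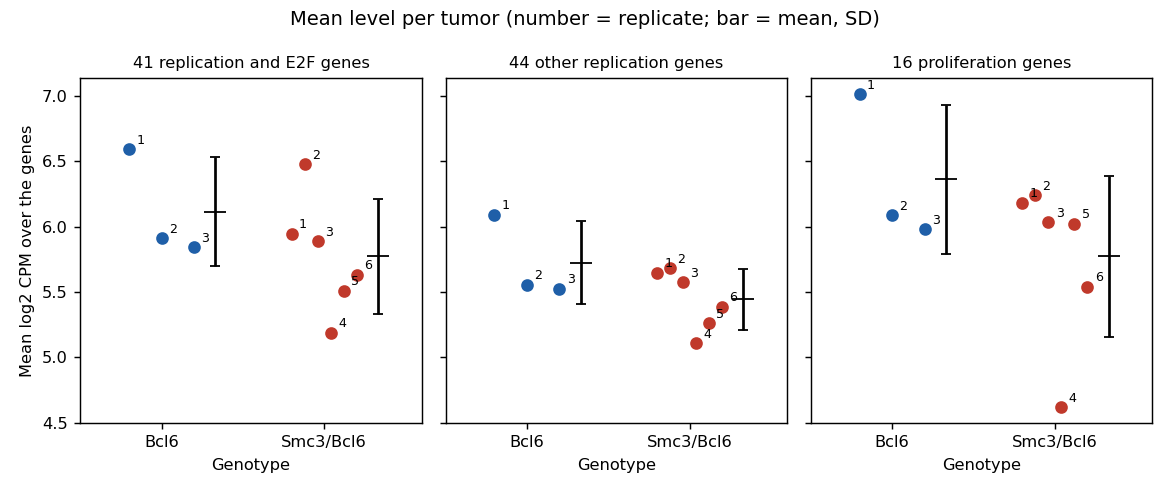
Mean log2 CPM per tumor (vertical axis) by genotype for the 41 replication and E2F genes, 44 other replication genes and 16 proliferation genes; points are tumors with their replicate number, and bars are the mean and SD. In the left panel, with TMM factors, Bcl6 tumor 1 (6.59) and Smc3/Bcl6 tumor 2 (6.48) are above the other 7 tumors, and Smc3/Bcl6 tumor 4 (5.19) is the lowest.

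Gene by gene, the same few tumors took the extremes. With TMM factors, Bcl6 tumor 1 was the highest of the 9 tumors for 21 genes, and Smc3/Bcl6 tumor 2 was the highest for the other 20. When tumor 2 was left out, Bcl6 tumor 1 was the highest of 8 for 39 of the 41. Smc3/Bcl6 tumor 4 was the lowest of 9 for 28 genes and lay below all Bcl6 tumors for 36. Tumors 5 and 6 lay below all Bcl6 tumors for 31 and 29 genes, tumor 3 for 12, tumor 1 for 9 and tumor 2 for 7. The shares of all genes at these extremes are not given here, so these counts only describe the order of the tumors. Bcl6 tumors 2 and 3 and Smc3/Bcl6 tumors 1 and 3 were close to the median of each gene, with median deviations of 0.03, 0.00, 0.06 and 0.00 log2 units. The genotype groups thus did not separate as blocks.

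**Figure D2:**
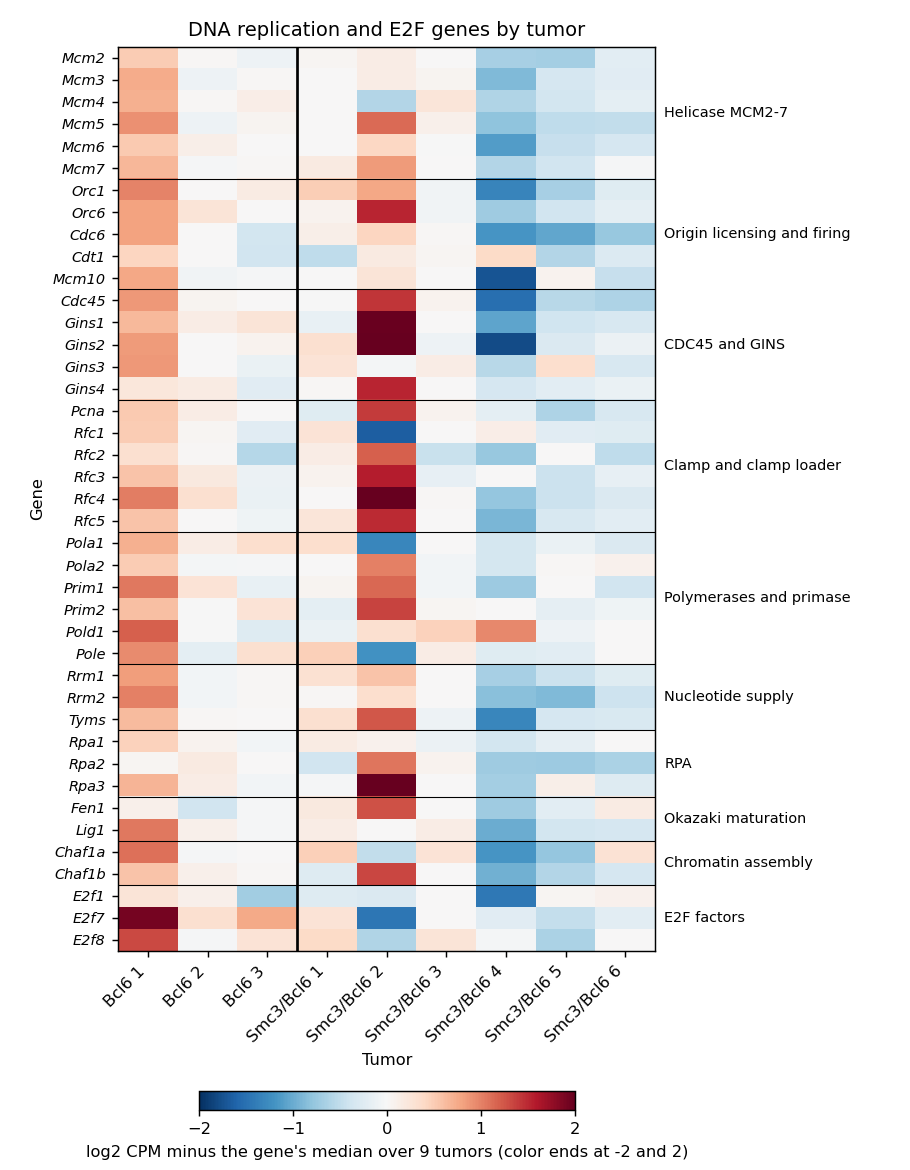
Log2 CPM of each of the 41 genes (rows, grouped by role) in each tumor (columns), as the difference from that gene's median over 9 tumors; red is higher and blue is lower, and colors end at -2 and 2. Bcl6 tumor 1 is above the median in nearly every row, Smc3/Bcl6 tumor 2 holds both the deepest red and some deep blue cells, and Smc3/Bcl6 tumor 4 is mostly blue.

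Genotypes were compared gene by gene with edgeR's quasi-likelihood test, and a gene was called at an unadjusted p below 0.1 with an absolute log2 fold change above 0.56. Over 9 tumors 4 of the 41 genes were lower in Smc3/Bcl6 tumors (E2f7, E2f8, Pola1 and Lig1) and 0 were higher, where 0.868% of all genes tested were lower and 1.28% higher. The log2 fold change was negative for 32 genes and positive for 9, with a median of -0.23 against 0.06 over all genes tested, of which 42.6% were negative. Of the 41, 0 passed an adjusted p of 0.05 (smallest 1.00, Benjamini-Hochberg over all genes tested). At an unadjusted p below 0.05, 1 gene was lower and 0 were higher, where 79 of the 14057 genes tested passed in either direction. By the thresholds above, DESeq2 and limma also called 0 higher, where they called 2.43% and 4.57% of all genes higher. The groups did not overlap for E2f7 alone, where 0.199% of all genes were lower without overlap.

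Leaving out Smc3/Bcl6 tumor 2 raised the count to 10 genes lower and 0 higher, against 1.39% lower and 2.43% higher among 13942 genes tested. The 10 were Mcm5, Orc6, Cdc45, Gins1, Rfc4, Prim1, Rrm2, Lig1, Chaf1b and E2f7. The log2 fold change was negative for 40 of the 41 with a median of -0.47 against 0.03 over all genes, of which 46.8% were negative. The smallest adjusted p was 0.985 with edgeR. Gins1, Chaf1b and E2f7 did not overlap between groups in these 8 tumors, where 0.689% of all genes were lower without overlap. For Chaf1b the separation was narrow, 40.8 CPM in Smc3/Bcl6 tumor 3 against 41.4 CPM in Bcl6 tumor 3 with TMM factors. The counts also moved with other tumors. Without Bcl6 tumor 1, 0 of the 41 were lower, where 1.64% of all genes were lower, 23 were negative, and the median was -0.02. The count was 7 without Bcl6 tumor 2 (1.11% of all genes) and 2 without Smc3/Bcl6 tumor 4 (1.08%). It was 1 without Smc3/Bcl6 tumor 5 (0.737%) or 6 (0.440%). With Bcl6 tumor 1 and Smc3/Bcl6 tumor 2 both left out, 1 gene, E2f7, was lower, close to the share of all genes lower in that fit, 1.76%. There 35 of the 41 were negative, against 42.7% of all genes. E2f7 then stood at -0.66 (unadjusted p = 0.0808, edgeR). Limma with a quality weight per tumor called 4 of the 41 lower, E2f7, Cdc6, Cdc45 and Rpa2. That is near its share of all genes called lower, 7.13%.

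Equal replicate numbers were also treated as pairs, which the labels do not state. In a blocked fit of tumors 1 to 3 of either genotype, 1 gene, E2f7, was lower and 0 were higher. That is near the share of all 13360 genes tested that were lower, 1.90%. In that fit 21 of the 41 were negative with a median of -0.01, against 56.2% negative and a median of -0.08 over all genes. The same 6 tumors without the block also gave 1 lower, where 0.659% of all genes were lower. Without the block 22 of the 41 were negative, close to the share over all genes, 53.2%. The mean over the 41 genes differed by -0.65, 0.57 and 0.05 log2 units within pairs 1, 2 and 3, so 1 of the 3 pairs was lower in Smc3/Bcl6. E2f8, Pola1 and Lig1 stood at -0.56, -0.75 and -0.31 in the block and did not pass. With the tissue label as a covariate, over 9 tumors, E2f7 alone was lower, at -1.14. A count of 1 in 41 is near the share of all genes lower in that fit, 1.37%. Between the 2 tumors labelled mesenteric lymph node the mean over the 41 genes differed by -0.65 and E2f7 by -1.64. Among the 2 Bcl6 and 5 Smc3/Bcl6 tumors labelled lymph node the mean over the 41 genes differed by -0.14 and E2f7 by -1.01.

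**Figure D3:**
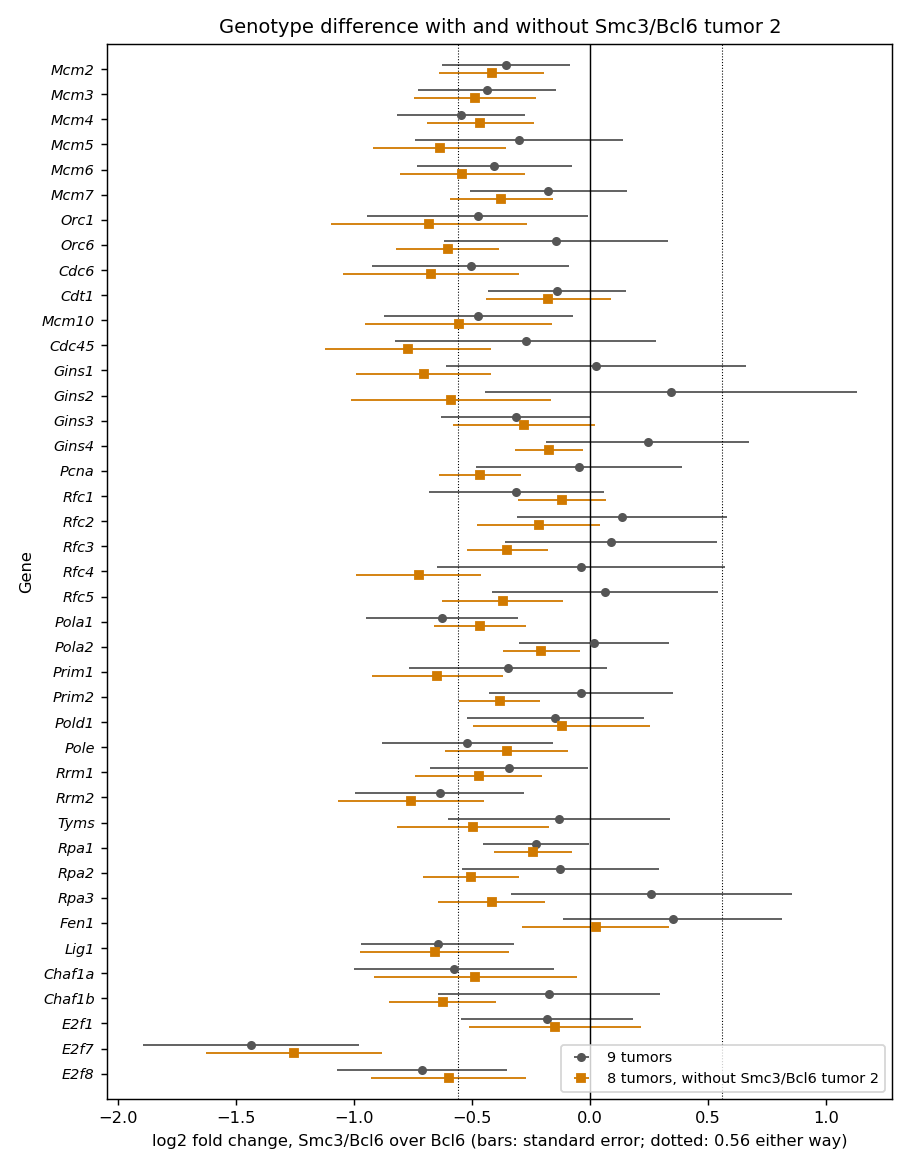
Log2 fold change of Smc3/Bcl6 over Bcl6 tumors (horizontal axis) for each of the 41 genes, with standard errors, over 9 tumors (circles) and over 8 without Smc3/Bcl6 tumor 2 (squares); dotted lines mark 0.56 either way. E2f7 is the farthest left in both, and squares lie left of 0 for 40 genes.

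The 6 genes of the MCM2-7 ring had negative log2 fold changes from -0.55 to -0.18 over 9 tumors, and 0 passed the thresholds. Mcm6 had the highest level per length of all 41 genes, a mean of 99.5 CPM per kilobase of exon. It measured 680, 512 and 473 CPM in Bcl6 tumors and 218 to 630 in Smc3/Bcl6 tumors (median 423), with a log2 fold change of -0.40 ± 0.33 (standard error), and -0.54 without Smc3/Bcl6 tumor 2. Mcm5 measured 389, 193 and 215 CPM against 118 to 452 (median 177). Its highest value was in Smc3/Bcl6 tumor 2, and its log2 fold change went from -0.30 to -0.64 (unadjusted p = 0.0524, edgeR) without that tumor. Mcm2, Mcm3, Mcm4 and Mcm7 were lowest in Smc3/Bcl6 tumor 4 or 5. Their log2 fold changes were -0.36, -0.44, -0.55 and -0.18 over 9 tumors and -0.42, -0.49, -0.46 and -0.38 without Smc3/Bcl6 tumor 2.

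Of the 5 origin licensing and firing genes, 0 passed over 9 tumors and Orc6 passed without Smc3/Bcl6 tumor 2. Orc6, the smallest subunit of the origin recognition complex and the highest of this role per length, measured 82.3, 56.5 and 47.2 CPM against 28.9 to 136 (median 43.1). The 136 CPM was Smc3/Bcl6 tumor 2, and without it the log2 fold change was -0.60 ± 0.22 (standard error, unadjusted p = 0.0239, edgeR), against -0.14 with it. Cdc6 and Cdt1, which load the helicase, had log2 fold changes of -0.50 and -0.14, Orc1 of -0.48 and Mcm10, an initiation factor, of -0.47. Without Smc3/Bcl6 tumor 2 these were -0.67, -0.18, -0.68 and -0.56, in the same order. Mcm10 was at 10.3 CPM in Smc3/Bcl6 tumor 4 and between 25.0 and 59.2 CPM in the other 8.

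Smc3/Bcl6 tumor 2 stood out in Cdc45 and Gins1, Gins2 and Gins4, which encode the parts that activate the helicase. Cdc45 measured 92.4, 52.8 and 50.6 CPM against 17.7 to 136 (median 42.4). Gins1 measured 15.3, 10.7 and 11.5 CPM against 4.59 to 38.6 (median 8.20). Gins2 measured 29.2, 16.2 and 17.1 CPM against 4.59 to 90.5. In all 3 the highest value was in Smc3/Bcl6 tumor 2 and the lowest in tumor 4. The SD of log2 CPM of Gins2 within Smc3/Bcl6 tumors was 1.38, the largest of the 41, and 0.81, still the largest, without tumor 2. Without that tumor the log2 fold change of Cdc45 was -0.77 and of Gins1 -0.70, both past the thresholds, from -0.27 and 0.02 with it. Gins4, the highest of the role per length, measured 64.1, 60.9 and 46.8 CPM against 43.3 to 157 (median 52.3) and passed in neither fit, at 0.25 with and -0.17 without Smc3/Bcl6 tumor 2. Gins3 had log2 fold changes of -0.31 and -0.28, and Gins2 of 0.34 and -0.59. Gins2 shares 67.3% of its exon bases with Gse1, and strand was not stated for the counting, so its counts are uncertain.

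The clamp Pcna and the 5 clamp loader genes gave 3 positive and 3 negative log2 fold changes over 9 tumors, from -0.31 to 0.13. Without Smc3/Bcl6 tumor 2 all 6 were negative, and Rfc4 passed at -0.72 ± 0.27 (standard error, unadjusted p = 0.0247, edgeR). Rfc4 measured 94.7, 58.5 and 42.5 CPM against 27.2 to 188 (median 42.4), with 188 in Smc3/Bcl6 tumor 2. Rfc2, the highest of the role per length, measured 354, 289 and 191 CPM against 168 to 654 (median 246) and shares 15.1% of its exon bases with Lat2. Rfc1, which encodes the large subunit, went the other way in Smc3/Bcl6 tumor 2, with 30.6 CPM against 81.0 to 137 in the other 8 tumors. Over 9 and over 8 tumors the log2 fold changes were -0.31 and -0.12 for Rfc1, 0.13 and -0.22 for Rfc2, and 0.09 and -0.35 for Rfc3. They were 0.06 and -0.37 for Rfc5 and -0.05 and -0.47 for Pcna.

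Among polymerase and primase genes Pola1, the catalytic subunit of polymerase alpha, passed over 9 tumors (ENSMUSG00000006678.6, chromosome X of GRCm38 from 93304767 to 93632155, minus strand). It measured 70.7, 48.1 and 54.5 CPM in Bcl6 tumors and 17.5 to 54.8 (median 37.4) in Smc3/Bcl6 tumors. Its fold change on the log2 scale was -0.63 ± 0.32 (standard error, unadjusted p = 0.0794, edgeR). The lowest value was Smc3/Bcl6 tumor 2, and without it the log2 fold change was -0.47 and no longer past the fold threshold. Tumors 1 and 3 to 6 lay between 33.9 and 54.8 CPM, so the groups overlapped. Prim1, the catalytic primase subunit, measured 109, 63.4 and 47.2 CPM against 31.5 to 116 (median 51.6) and passed only without tumor 2, at -0.65. Pold1, the highest of the role per length, measured 224, 97.0 and 81.5 CPM against 89.2 to 191 (median 110) and, unlike most of the 41, was high in Smc3/Bcl6 tumor 4. Pola2, Prim2, Pold1 and Pole had log2 fold changes of 0.02, -0.04, -0.15 and -0.52, and of -0.21, -0.38, -0.12 and -0.35 without Smc3/Bcl6 tumor 2. The SD of Prim2 within Smc3/Bcl6 tumors without tumor 2 was 0.10, the smallest of the 41.

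For nucleotide supply, Rrm2, the regulated subunit of ribonucleotide reductase, measured 499.7, 238 and 252 CPM against 134 to 314 (median 217). Its highest value was Bcl6 tumor 1, and the groups overlapped. The log2 fold change was -0.64 over 9 tumors, not past the thresholds (unadjusted p = 0.106, edgeR), and -0.76 without Smc3/Bcl6 tumor 2 (unadjusted p = 0.0391). Rrm1 and Tyms, which makes thymidylate, had log2 fold changes of -0.34 and -0.13, and of -0.47 and -0.50 without Smc3/Bcl6 tumor 2. Of the single-strand binding protein RPA, Rpa1 measured 341, 259 and 238 CPM against 193 to 279 (median 238). Its SD within Smc3/Bcl6 tumors, 0.19 log2 units, was the smallest of the 41. Rpa2 had the smallest SD within Bcl6 tumors, 0.10. Rpa3, with a short transcript, was at 149 CPM in Smc3/Bcl6 tumor 2 and between 21.7 and 56 in the others. Rpa1, Rpa2 and Rpa3 had log2 fold changes of -0.23, -0.13 and 0.26, and of -0.24, -0.50 and -0.42 without that tumor.

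Lig1 (ENSMUSG00000056394.12, chromosome 7 from 13277283 to 13311433, plus strand), the ligase that joins Okazaki fragments, passed in both fits. It measured 174, 90.2 and 82.7 CPM in Bcl6 tumors and 42.3 to 93.3 (median 75) in Smc3/Bcl6 tumors. On the log2 scale the difference was -0.64 ± 0.32 (standard error, unadjusted p = 0.0753, edgeR) and -0.66 without Smc3/Bcl6 tumor 2, and it was -0.29 without Bcl6 tumor 1. Bcl6 tumor 1 was above all other tumors, Smc3/Bcl6 tumors 4 to 6 were below all Bcl6 tumors, and the other 5 tumors lay between 82.7 and 93.3 CPM. Fen1, the flap nuclease, measured 3.66 to 14.9 CPM and shares 84.2% of its exon bases with Tmem258 and Gm10143, so its level and its log2 fold change of 0.35, or 0.02 without Smc3/Bcl6 tumor 2, are uncertain. Chaf1b of the chromatin assembly factor CAF-1 measured 60.4, 43.8 and 41.4 CPM against 20.9 to 103 (median 33.3). The 103 CPM was Smc3/Bcl6 tumor 2, and the other 5 tumors, from 20.9 to 40.8, lay below all Bcl6 tumors, with a log2 fold change of -0.62 (unadjusted p = 0.0244, edgeR). Chaf1a stood at -0.57 ± 0.42 (log2 fold change and standard error), at -0.49 without Smc3/Bcl6 tumor 2,, and shares 52.5% of its exon bases with Ubxn6, so its counts are uncertain.

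E2f7 (ENSMUSG00000020185.11, chromosome 10 of GRCm38 from 110745439 to 110787384, plus strand) had the largest difference between genotypes of the 41. It measured 22.9, 7.56 and 10.2 CPM in Bcl6 tumors, and 7.28, 2.12, 6.01, 5.12, 4.26 and 5.20 CPM in Smc3/Bcl6 tumors 1 to 6. All 6 Smc3/Bcl6 tumors were below all Bcl6 tumors, but Smc3/Bcl6 tumor 1 (7.28 CPM) lay close to Bcl6 tumor 2 (7.56 CPM). The log2 fold change was -1.44 ± 0.46 (standard error, unadjusted p = 0.0105, adjusted p = 1.00, edgeR), -1.25 without Smc3/Bcl6 tumor 2 and -1.44 with the replicate block. It was -0.76 (unadjusted p = 0.0369) with limma and a quality weight per tumor. Without Bcl6 tumor 1 it was -0.89 ± 0.49 with an unadjusted p of 0.103 (edgeR), no longer past the threshold. Per length E2f7 had the lowest level of the 41, 0.872 CPM per kilobase.

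E2f8 (ENSMUSG00000046179.12, chromosome 7 from 48866429 to 48881596, minus strand), the other atypical factor, measured 52.9, 20.7 and 25.4 CPM in Bcl6 tumors and 13.5 to 27.3 (median 20.7) in Smc3/Bcl6 tumors. On the log2 scale the difference was -0.71 ± 0.36 (standard error, unadjusted p = 0.0767, edgeR) and -0.60 without Smc3/Bcl6 tumor 2, where it did not pass. It was -0.26 without Bcl6 tumor 1, and the groups overlapped. The activator E2f1 (ENSMUSG00000027490.12, chromosome 2 from 154559407 to 154569892, minus strand) measured 28.5, 25.5 and 14.6 CPM against 19.7, 19.5, 23.7, 8.72, 24.3 and 25.1 CPM. The groups overlapped, and its log2 fold change was -0.18 ± 0.36 (standard error) and -0.15 without Smc3/Bcl6 tumor 2. Only Bcl6 tumor 3 and Smc3/Bcl6 tumor 4 were below 19 CPM.

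Within each tumor E2f7 was set against E2f1 as the difference in log2 CPM. It was -0.31, -1.74 and -0.51 in Bcl6 tumors (mean -0.85 ± 0.77, SD, n = 3), and from -3.12 to -0.75 in Smc3/Bcl6 tumors (mean -1.99 ± 0.83, SD, n = 6). The means differed by -1.14, and by -0.92 without Smc3/Bcl6 tumor 2. The groups overlapped, since Bcl6 tumor 2 was lower than 2 of the 6 Smc3/Bcl6 tumors. E2f8 minus E2f1 differed by -0.44 (0.46 ± 0.66 against 0.03 ± 0.74, SD), and by -0.33 without Smc3/Bcl6 tumor 2. The spread within groups exceeded that difference. E2f7 minus E2f8, looked at after its values were seen, was -1.44 to -1.20 in Bcl6 tumors and -2.62 to -1.63 in Smc3/Bcl6 tumors. The groups did not overlap with or without Smc3/Bcl6 tumor 2, and the means differed by -0.70 and -0.58. The share of other gene pairs without overlap is not given here, so these values only describe this pair.

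Across the 9 tumors, both genotypes together, E2f7 and E2f8 varied together (Pearson r = 0.92, exact permutation p = 0.000791, adjusted over 3 relations p = 0.00237; Spearman rho = 0.85, exact permutation p = 0.00607, adjusted p = 0.0182). Without the 2 tumors farthest from the median of E2f7, Bcl6 tumor 1 and Smc3/Bcl6 tumor 2, r was 0.72 (exact permutation p = 0.0629) and rho 0.71 (exact permutation p = 0.0881) in 7 tumors, so the relation no longer passed 0.05. Without Smc3/Bcl6 tumor 2 alone r was 0.92 (exact permutation p = 0.00213, adjusted p = 0.0064) and rho 0.81 (exact permutation p = 0.0218, adjusted p = 0.0653). The rank correlation in those 8 tumors thus did not pass 0.05 after adjustment. E2f7 and E2f8 both had lower means in Smc3/Bcl6 tumors, so these values mix the genotype difference with variation within a genotype. Whether the genes varied together within a genotype was not tested. E2f1 with E2f7 gave r = 0.22 (exact permutation p = 0.512, adjusted p = 0.549) and rho = 0.38 (exact permutation p = 0.313, adjusted p = 0.469). E2f1 with E2f8 gave r = 0.20 (exact permutation p = 0.549) and rho = 0.23 (exact permutation p = 0.552). Without their 2 farthest tumors, Smc3/Bcl6 tumor 4 and Bcl6 tumor 3, r was 0.69 and 0.50 (exact permutation p = 0.0710 and 0.255).

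**Figure D4:**
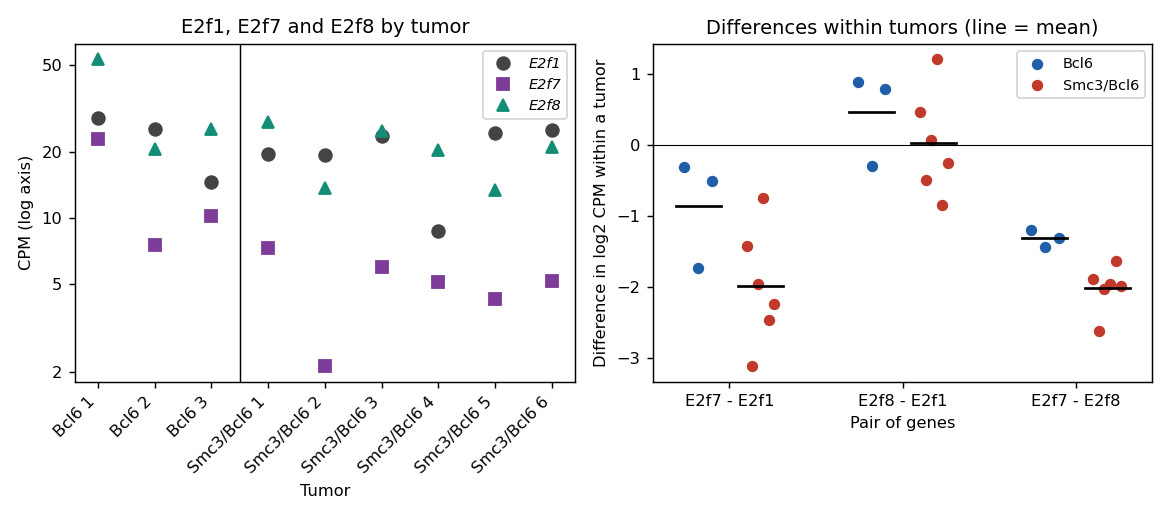
Left, CPM (log axis) of E2f1, E2f7 and E2f8 in each of the 9 tumors; right, the difference in log2 CPM between 2 of these genes within each tumor, with the group mean as a line. E2f7 is lower in all 6 Smc3/Bcl6 tumors than in the 3 Bcl6 tumors. E2f7 minus E2f8, a pair looked at after its values were seen, is -1.44 to -1.20 in Bcl6 and -2.62 to -1.63 in Smc3/Bcl6 tumors.

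Smc3/Bcl6 tumor 2 differed from the others in the shape of its values. The SD over the 41 genes of its deviations from the gene medians was 1.01 log2 units, against 0.14 to 0.56 in the other 8 tumors. Its deviations from the mean of the other 8 tumors fell with exon length, with exceptions. On that scale the 10 members with under 3000 bases of exon had a median deviation of 1.51. The 20 from 3000 to 6000 had 0.79 and the 11 of 6000 or more had 0.28. Over all genes tested the same classes had 0.80, -0.14 and -0.99, so the members lay above other genes of like length in this tumor. Across the 41 genes the rank correlation of deviation with exon length was -0.52, and across all genes -0.47, a description over genes of 1 library. E2f7, with 9009 bases of exon, Pola1 with 8813 and Rfc1 with 6021 were low in it. Set against the gene medians, 6 of the 11 long members were nevertheless higher, among them Tyms at 1.23, Rfc2 at 1.20 and Pola2 at 1.01. On that scale the short Gins3 stood at -0.04. With an offset for length and GC content the fold change of E2f7 was -1.39, and E2f7, E2f8, Lig1 and Rrm2 passed the thresholds, where 0.797% of all genes were lower. Pola1 then stood at -0.52 and did not. The part of RNA quality in the values of this tumor was not tested.

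**Figure D5:**
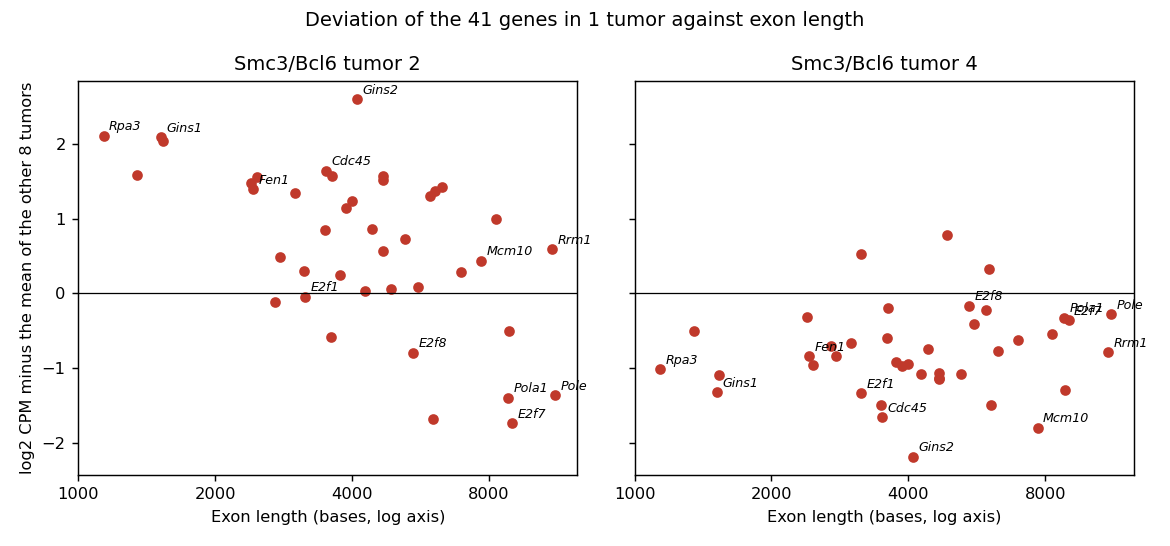
Deviation of each of the 41 genes from the mean of the other 8 tumors (log2 CPM, vertical axis) against its exon length (bases, log axis), for Smc3/Bcl6 tumor 2 on the left and Smc3/Bcl6 tumor 4 on the right. In tumor 2, 3 of the 10 genes under 3000 bases lie above 2, as does Gins2 with 4097 bases, and 4 of the 11 of 6000 or more lie below -1; in tumor 4 most genes lie below 0 at every length.

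Other genes of replication and of the cell cycle were counted in the same fits. Of 44 further replication genes, 3 were lower in Smc3/Bcl6 tumors and 0 higher over 9 tumors, with a median log2 fold change of -0.20, against 0.868% of all genes lower. They were Timeless and Clspn, which act at the fork and in its checkpoint, at -0.90 and -0.88, and Ticrr, needed for origin firing, at -1.05. Without Smc3/Bcl6 tumor 2 the count was 6 (1.39% of all genes), and without Bcl6 tumor 1 it was 0 (1.64%). Of 20 E2F, RB and S-phase cyclin genes, 1 was lower, Rbl1 (p107, an RB family member) at -0.65, and 2 were without Smc3/Bcl6 tumor 2, Ccne2 and Ccna2, named after their values were seen. Of 16 proliferation genes, 4 were lower, Top2a at -0.96, Bub1 at -1.04, Foxm1 at -0.72 and Tpx2 at -0.61, and Mki67 had -0.65 (unadjusted p = 0.223, edgeR). Without Smc3/Bcl6 tumor 2, 6 of the 16 were lower. The shares of all genes lower were again 0.868% with that tumor and 1.39% without it. The proliferation mean was also lowest in Smc3/Bcl6 tumor 4, at 4.62 log2 CPM against 5.54 to 7.01 in the other 8.

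Markers of other cells varied between the same tumors. The summed CPM of 7 erythroid markers was 43.8 to 1472 in Bcl6 tumors and 122 to 12541 in Smc3/Bcl6 tumors. It was highest in Smc3/Bcl6 tumor 4, the tumor with the lowest mean of replication genes, and lowest in Bcl6 tumor 1, the one with the highest. Scaled with TMM factors, Smc3/Bcl6 tumor 2 did not follow this order, with the next highest erythroid sum, 4660 CPM, and the next highest mean of replication genes, 6.48. All 7 erythroid markers had positive log2 fold changes, with a median of 2.12. Of them 2 passed as higher in Smc3/Bcl6 tumors, among them Klf1, an erythroid transcription factor, where 1.28% of all genes were higher. Signs were as uniform in other lists. All 8 B cell markers were positive (median 0.37), and all 9 T cell markers (median -0.64) and all 7 neutrophil markers (median -1.48) were negative. The 9 T cell markers summed to 292 to 2458 CPM in Bcl6 and 84.6 to 2251 in Smc3/Bcl6 tumors, and the 9 macrophage markers to 441 to 7852 and 269 to 8376. The 7 neutrophil markers summed to 19.1 to 1842 and 8.13 to 831 CPM, with Elane and Mpo lower, where 0.868% of all genes were lower. The 6 germinal center B cell markers summed to 306 to 759 and 252 to 710 CPM, with Mybl1 lower. The 6 plasma cell markers summed to 1267 to 1581 and 688 to 3753 CPM, and the 7 stromal and endothelial markers to 95.7 to 126 and 19.3 to 330 CPM. None of these markers was at 0 in all tumors. The part of these cells in the values of the replication genes was not tested.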

How the data were processed

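RNA-seq counts of 3 Bcl6 and 6 Smc3/Bcl6 tumors were used. The authors prepared TruSeq libraries, aligned the reads to mm10 with STAR in the nf-core pipeline, summed reads over genes with featureCounts and deposited the raw counts, which total 10156728 to 17774577 per tumor. Whether strand was used is not given in the sources used here. Groups and replicate numbers came from the labels. GENCODE M21 (GRCm38) held 97.9% of the gene identifiers and gave exon lengths. Promoters came from RefSeq.

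The comparison of genotypes used edgeR 4.0.16 under R 4.3.3 (TMM, filter on low counts, quasi-likelihood test, no covariate) over all genes. The thresholds were those of the study, unadjusted p under 0.1 with a log2 fold change beyond 0.56 either way. At these thresholds the study reported more genes lower than higher in Smc3/Bcl6 tumors. The balance here was the reverse, with 180 higher and 122 lower in edgeR, and 342 and 101 in DESeq2. The reason for this was not tested. A prior count of 2 was set for log2 CPM. Alternatives were DESeq2 1.42.0, limma 3.58.1, other scalings and filters, the tissue label, a length and GC offset (lowess span 0.3), each tumor left out, and the replicate number as a block. Deviations of tumors with equal numbers correlated at 0.47, 0.13 and 0.18 over 13360 genes. Tumors with unequal numbers were not compared in this way, so these values do not show that equal numbers are pairs. Neither the labels nor the study's text state such pairs, and the block is a choice made from the data. The members and lists were chosen with earlier results of these data known. All 41 members are named. For the E2F genes, those past the thresholds in either fit and the highest per length of each role, the value in each Bcl6 tumor is given, with each value or the range and median of the Smc3/Bcl6 tumors. Of the other lists, genes past the thresholds, Mki67 and Top2a are named, except 1 gene that is not reported here.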

Additional observations from a re-analysis of the deposited data

Results flagged for a closer look

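In a group of 6 tumors, the gap between the extreme tumor and its nearest neighbor, as a share of the group's whole range, was set against Dixon's critical value for 45 measures, and 13 exceeded it, where about 2.2 would by chance. Smc3/Bcl6 tumor 2 was the extreme in 11 of them. It was high for Gins4 (gap 0.804 of the range), Prim2 (0.849), Rfc3 (0.748), Rpa3 (0.716), Rfc4 (0.715), Pola2 (0.673), Pcna (0.664), Gins1 (0.654) and Orc6 (0.649), and low for Smc3 (0.847) and Rfc1 (0.732). The other 2 came from Smc3/Bcl6 tumor 4, which was low for E2f1 (0.758) and Mcm10 (0.636). The measures share tumors and are not independent.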

How the results depend on the processing

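E2f7 passed the thresholds, lower in Smc3/Bcl6 tumors, under 11 of 11 alternatives other than leaving out a tumor, and among the 9 tumors left out in turn it failed without Bcl6 tumor 1. The count of members lower, 4, was 1 with the tissue label as covariate, 1 at an unadjusted p below 0.05 and 0 at an adjusted p below 0.05. It was 1 with Bcl6 tumor 1 and Smc3/Bcl6 tumor 2 both left out, a choice made after seeing the data. With single tumors left out it ranged from 0 (without Bcl6 tumor 1) to 10 (without Smc3/Bcl6 tumor 2), and the count of members higher stayed at 0. The count of other replication genes lower, 3, was 1 at an unadjusted p below 0.05 and 0 at an adjusted p below 0.05, and ranged from 0 to 6 with tumors left out.

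In the replicate block, members lower numbered 1 with and without the length and GC offset, and other replication genes lower numbered 1 with that offset. The tumors of the block, fitted without it, gave 22 of the 41 members negative, against 21 with it. Of the 32 negative log2 fold changes, 11 turned positive in the block. Among the 10 genes lower over 8 tumors these were Mcm5 at 0.088, Orc6 at 0.12, Cdc45 at 0.15, Rfc4 at 0.23 and Chaf1b at 0.094. With block and offset together Mcm5 was 0.077, Orc6 0.021, Cdc45 0.12, Rfc4 0.022, Prim1 0.035 and Chaf1b 0.18, and Gins1 turned to -0.030.

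Gins1, at 0.02, also turned negative with limma (-0.51), library size alone (-0.25), no filter (-0.0090), the tissue covariate (-0.0065) and the length and GC offset (-0.29). Rfc4 turned to 0.0222 with DESeq2, 0.0216 with RLE scaling and 0.031 with the tissue covariate. Smc3 was 0.058 with limma. Leaving out single tumors gave Smc3 -0.30 to 0.013, Orc6 -0.60 to 0.032, Gins1 -0.70 to 0.16 and Rfc4 -0.72 to 0.24. It gave differences of -0.48 to -0.10 for the mean over members, -1.58 to -0.87 for E2f7 minus E2f1, -0.82 to -0.22 for E2f8 minus E2f1 and -0.78 to -0.58 for E2f7 minus E2f8. The cause of these changes was not tested. Over all genes, 180 were higher and 122 lower with TMM, 108 and 175 with library size alone, and 642 and 1002 with limma. At this number of tumors, a difference of the size of the standard errors was not detectable.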
